A study of Arabidopsis thaliana with 9 samples.

Results

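The genes described here belong to 3 Arabidopsis families that build or remodel wall polysaccharides: the TBL genes (TRICHOME BIREFRINGENCE-LIKE), the GH9 genes (glycosyl hydrolase family 9) and the XTH genes (xyloglucan endotransglucosylase/hydrolases). A gene was taken when a probe set was annotated to it alone and its symbol was TBL, GH9A, GH9B, GH9C or XTH followed by a number. That gave 46 genes out of 13350 with a probe set of their own: 22 TBL, 15 GH9 and 9 XTH. The gene table of the TAIR10.1 assembly names 41, 21 and 30 genes of these families. Each of the 46 genes had 1 probe set. One of them, for TBL32, carries the suffix that the array's maker gives to probe sets matching more than 1 transcript, so its signal may be shared.

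The samples were whole seedlings of Arabidopsis thaliana, ecotype Col-0, grown in darkness for 4 days on plates with sucrose. Genotypes with 3 arrays each were cop1-4 carrying BBX22-GFPox, taken here to mean that a fusion of BBX22 to GFP was overexpressed, cop1-4 without it, and the wild type. The construct was measured only in the cop1-4 background, and its promoter and the number of lines behind it are not given in the labels. The transcripts of COP1 and BBX22 were not analysed here, and no array's genotype label could be set against them.

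COP1 is part of a ubiquitin ligase that keeps light signalling off in the dark by removing its activators. BBX22, a zinc finger protein of the B-box family, is one of the regulators that push seedlings toward light growth. A dark-grown wild type seedling lengthens its hypocotyl by cell expansion, for which the wall has to yield and be rebuilt, while dark-grown cop1 seedlings stay short. The wall is a mesh of cellulose, hemicelluloses such as xyloglucan, xylan and mannan, and pectin. XTH enzymes cut and rejoin xyloglucan chains, GH9 enzymes are endoglucanases that cut glucan chains, and most TBL proteins studied add acetyl groups to hemicelluloses or pectin in the Golgi. In whole seedlings, fewer cells of a type and less RNA per cell cannot be told apart.

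Signals are the deposited MAS5 values, on a linear scale and at a common level across arrays. The test used log2(signal + 24.5), so changes of dim genes are understated. Of the 46 genes 32 passed the filter on dim probe sets: 16 TBL, 9 GH9 and 7 XTH. A gene was called at an adjusted p under 0.05 in a limma fit over all 15922 probe sets kept, and "rose" and "fell" below stand for such calls. Log2 changes are cop1-4 minus wild type, cop1-4 BBX22-GFPox minus wild type or cop1-4 BBX22-GFPox minus cop1-4, each with its SE.

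In each genotype the arrays of replicates 2 and 3 were alike and that of replicate 1 differed, and GH9 and XTH genes were mostly lower in it. Arrays of replicates 2 and 3 correlated at 0.982 to 0.989 within a genotype, and replicate 1 with either at 0.816 to 0.926. The median XTH gene lay lower in replicate 1 than in replicates 2 and 3 of cop1-4 BBX22-GFPox (log2 difference -1.996), with differences of -1.96 in cop1-4 and -1.28 in the wild type. The medians for GH9 were -1.31, -0.73 and -0.42 in the same order of genotypes, and those for TBL were -0.46, -0.17 and -0.05. Over all tested probe sets the medians lay between -0.11 and -0.04. The replicate numbers are shared between the genotypes in the labels, so results with that number fitted as a block are given where the block changed a call of a TBL, GH9 or XTH gene or of another gene named. Below, "with the block only" and "without the block" set the block fit against the main fit, which had no block. Other settings called some of these genes too. No cause of the replicate 1 difference was tested.

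**Figure D1:**
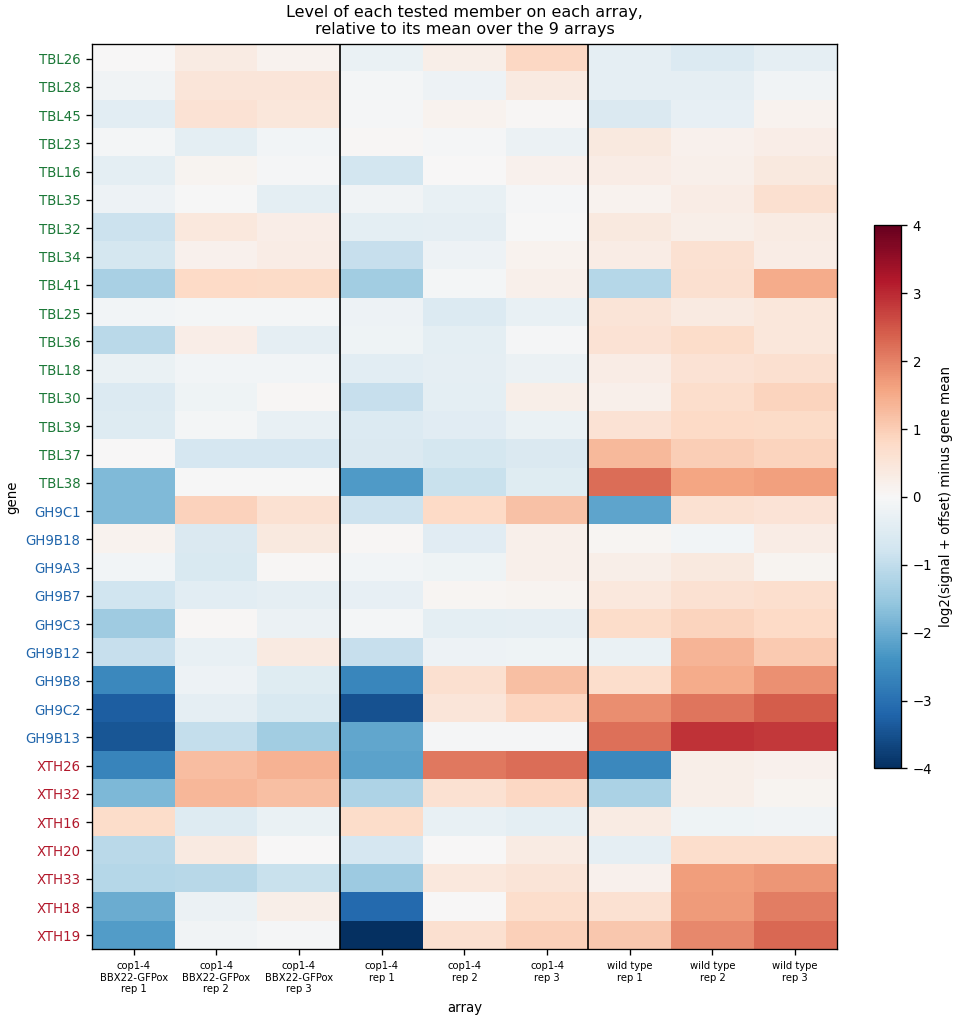
Level of each of the 32 tested genes (rows, TBL green, GH9 blue, XTH red) on each of the 9 arrays (columns, by genotype and replicate), as log2(signal + 24.5) minus the gene's mean over the arrays. The darkest blue cells lie in replicate 1, for GH9B13 and GH9C2 in cop1-4 BBX22-GFPox and for GH9C2 and XTH19 in cop1-4, and the called genes are highest in the wild type columns.

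Between dark-grown cop1-4 and the wild type, 6 of the 32 tested genes fell and 0 rose. The called genes were 5 TBL genes (TBL18, TBL25, TBL37, TBL38 and TBL39) and 1 GH9 gene (GH9B13). Across all tested probe sets 14.5% fell and 11.3% rose, so the 18.75% that fell over the 3 families together is near that background. By family the share that fell was 31.25% of TBL, 11.1% of GH9 and 0% of XTH genes. Of the 7 XTH genes 0 were called and 2 had an unadjusted limma p under 0.05, as had 6349 of all 15922 probe sets. At an unadjusted limma p under 0.05, 1 gene of the 32 was higher, TBL26, beside 2814 of all 15922 probe sets. With the replicate block 17 fell (8 TBL, 6 GH9 and 3 XTH) and 2 rose (GH9C1 and XTH26), where the same fit called 24.6% of all probe sets lower and 19.9% higher. Leaving out 1 array at a time gave 5 to 9 lowered genes and 0 or 1 raised, the 1 being TBL26 without cop1-4 replicate 1 (adjusted p = 0.0221). The same fits called 1241 to 2910 of all probe sets lower and 973 to 2731 higher. In replicates 2 and 3 alone, a setting added after the data were seen, 20 of the 32 genes fell and 3 rose, and so did 33.6% and 28.7% of all probe sets.

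Most of the genes had lower values in cop1-4 whether called or not. Negative log2 changes were seen for 13 of 16 TBL, 8 of 9 GH9 and 5 of 7 XTH genes, beside 55.1% of all tested probe sets. The median log2 change was -0.75 for TBL, -1.07 for GH9 and -0.46 for XTH, against -0.11 for all tested probe sets. All 3 cop1-4 arrays lay below all 3 wild type arrays for 11 TBL genes, 4 GH9 genes and 1 XTH gene, a pattern found in 25.7% of all tested probe sets, and above them for 1 gene, TBL26, beside 19.2%. Centring each array on its median moved the median of all probe sets to 0.00 and left the medians of the families at -0.64, -0.96 and -0.35 in the order TBL, GH9, XTH. Within replicate 1 the medians in that order were -0.74, -0.75 and -0.31, and within replicates 2 and 3 they were -0.74, -0.73 and -0.53. Leaving out 1 array at a time gave medians of -0.84 to -0.53 for TBL, -1.11 to -0.47 for GH9 and -0.81 to -0.28 for XTH, and the GH9 value of -0.47 was without cop1-4 replicate 1.

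TBL38, which has been described as acting on acetylated pectin in seed coat cells, had the largest log2 change of its family. Its signal was 51.4, 172 and 239.8 in replicates 1 to 3 of cop1-4, against 1702.5, 1071 and 1122 in the wild type. Every cop1-4 array lay far below every wild type array, by 8.41-fold between the means (log2 change -3.04 ± 0.57, adjusted p = 0.0070). TBL37, whose transcription has been linked to jasmonate signalling, had signals of 727, 667 and 728 in cop1-4, and 2738, 2188 and 2045 in the wild type. Its cop1-4 arrays were closely grouped, and the means differed 3.29-fold (log2 change -1.67 ± 0.24, adjusted p = 0.00238).

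TBL39 measured 353, 385 and 436 in cop1-4 and 812, 944 and 929 in the wild type. The groups did not overlap and its log2 change was -1.15 ± 0.19 (adjusted p = 0.00409), with -1.15 in replicate 1 and -1.15 in replicates 2 and 3. TBL18 measured 337, 356 and 389 in cop1-4 and 582, 709 and 731 in the wild type, again with no overlap (log2 change -0.85 ± 0.17, adjusted p = 0.00932). TBL25, which encodes an enzyme that acetylates mannan, had the smallest log2 change of the called TBL genes, at 1467, 1155 and 1365 in cop1-4 against 2412, 2176 and 2313 in the wild type (log2 change -0.79 ± 0.18, adjusted p = 0.0157). It was no longer called when cop1-4 replicate 2 was left out (adjusted p = 0.0671) or when wild type replicate 3 was, while TBL18, TBL37, TBL38 and TBL39 stayed called whichever array was left out.

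The other TBL genes of the mannan group were not called beside TBL25. TBL26, also a mannan acetyltransferase gene, stood at 56.7, 90.6 and 150.7 in cop1-4 and 52.7, 42.4 and 51.7 in the wild type, higher on every cop1-4 array but not called (log2 change 0.69 ± 0.29, adjusted p = 0.110). It was called with median scaling (adjusted p = 0.0431), with array weights (adjusted p = 0.00239) and in replicates 2 and 3 alone (adjusted p = 0.00359). TBL23, the third mannan gene measured, averaged 316 ± 35.4 in cop1-4 and 411 ± 36.2 in the wild type (SD, n = 3 each) and was not called (adjusted p = 0.173), except as lower with array weights (adjusted p = 0.0471).

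Among genes for xylan acetyltransferases, 5 were tested (TBL28, TBL30, TBL32, TBL34 and TBL35) and none was called in cop1-4 against the wild type, their adjusted p ranging from 0.0649 to 0.380. TBL30 and TBL34 fell with the replicate block (adjusted p = 0.0061 and 0.0382). With array weights TBL30, TBL32, TBL34 and TBL35 fell (adjusted p = 0.00657, 0.0328, 0.0320 and 0.00965). That setting called 5321 of all 15922 probe sets lower. For TBL32, TBL34 and TBL35 every cop1-4 array lay below every wild type array. TBL30 measured 43.1, 73.3 and 127.4 in cop1-4 and 122.5, 183.7 and 214 in the wild type, overlapping in 1 array. TBL28 lies next to TBL30 on chromosome 2 and measured 144, 130.0 and 204 in cop1-4, against 117, 114 and 138 in the wild type, overlapping, with a log2 change of 0.30 ± 0.24 where that of TBL30 was -0.95 ± 0.33. TBL41 also fell with the block but not in the main fit (log2 change -0.76 ± 0.79, adjusted p = 0.0324 with the block and 0.505 without). Its replicate 1 signals were 43.1 in cop1-4 and 57.4 in the wild type, under those of all other arrays of both genotypes. The remaining tested TBL genes were TBL16, TBL36 and TBL45, with log2 changes of -0.48, -0.79 and 0.30, and none was called with or without the block. TBL36 fell with array weights (adjusted p = 0.00579) and in replicates 2 and 3 alone (adjusted p = 0.00455).

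GH9B13, of the GH9B class of secreted endoglucanases, had the largest log2 change of all 32 genes. It measured 62.1, 325 and 326 in cop1-4, against 1653, 2665 and 2567 in the wild type. The means differed 9.66-fold with no overlap (log2 change -3.37 ± 0.71, adjusted p = 0.0112), and the call stood without any single array. Replicate 1 gave a log2 difference of -4.28, and replicates 2 and 3 gave -2.92.

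GH9C2, of the class with a carbohydrate-binding module, had lower signals in cop1-4 on every array but was not called in the main fit. Its signals were 81.8, 1634 and 2096 in cop1-4, and 4262, 5172 and 6265 in the wild type (log2 change -2.85 ± 1.14, adjusted p = 0.0982, and 0.00823 with the replicate block). Replicate 1 of cop1-4 lay further below replicates 2 and 3 than for any other GH9 gene tested (log2 difference -4.14), and the cop1-4 minus wild type value was -5.33 for replicate 1 against -1.61 for replicates 2 and 3. GH9B8 and GH9B12 were also lowest in replicate 1 of cop1-4 among its 3 arrays. GH9B8 measured 3.80, 244 and 374 in cop1-4, against 252, 461 and 581 in the wild type (adjusted p = 0.265, and 0.0250 with the block). GH9B12 measured 23.1, 53.0 and 55.8 in cop1-4, against 49.6, 206 and 163 in the wild type (adjusted p = 0.114, and 0.0109 with the block).

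GH9B7 and GH9C3 also fell only with the block (adjusted p = 0.0132 and 0.0364). GH9A3, a gene of the membrane-anchored class and relative of KORRIGAN, measured 63.6, 59.8 and 84.8 in cop1-4 and 85.9, 98.7 and 78.5 in the wild type (adjusted p = 0.446). GH9B18 overlapped between the genotypes (log2 change -0.17 ± 0.31). GH9C1, which is known from root hairs, went the other way and rose with the block but not in the main fit. It measured 115, 406 and 531 in cop1-4, against 33.2, 349.9 and 335 in the wild type (log2 change 0.70 ± 0.94, adjusted p = 0.610, and 0.0411 with the block).

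No XTH gene was called between cop1-4 and the wild type in the main fit. XTH18 and XTH19, known mainly from roots and next to each other on chromosome 4, had the lowest log2 changes of the family. XTH19 measured 38.4, 2145 and 2685 in cop1-4, against 2878, 5241 and 6809.9 in the wild type, with no overlap. XTH18 measured 125, 1269 and 2076 in cop1-4, against 1906, 4128 and 5303 in the wild type, where cop1-4 replicate 3 lay above wild type replicate 1. Both were lowest in cop1-4 replicate 1, and their log2 changes were -2.71 ± 1.31 for XTH19 (adjusted p = 0.157, and 0.0177 with the block) and -2.24 ± 0.97 for XTH18 (adjusted p = 0.121, and 0.0029 with the block). Probe sets of neighbouring genes of similar sequence can share signal, so the 2 may not be independent observations.

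XTH33, whose protein is predicted to be held at the plasma membrane, measured 108, 462 and 499 in cop1-4, against 386, 1122 and 1221 in the wild type (log2 change -1.37 ± 0.58, adjusted p = 0.111, and 0.0129 with the block). XTH26, known from root hairs, was the XTH gene with the highest log2 change. It measured 12.5, 668 and 738 in cop1-4, against 2.5, 166 and 157 in the wild type, so replicate 1 was near the bottom of the scale in both genotypes. Its log2 change was 1.46 ± 1.46 (adjusted p = 0.490, and 0.00622 with the block), with 0.45 in replicate 1 and 1.96 in replicates 2 and 3. The root hair expansin genes EXPA7 and EXPA18, 2 of 3 root hair markers listed, had summed signals of 101 to 949 in cop1-4 BBX22-GFPox, 196 to 1049 in cop1-4 and 47.0 to 609.5 in the wild type, and both were also higher in cop1-4 with the block only (adjusted p = 0.0186 and 0.0250). The part of root hair cells in the XTH26 and GH9C1 values was not tested. XTH16, XTH20 and XTH32 were called neither with nor without the block (log2 changes -0.0025, -0.46 and 0.38), and XTH16 alone of the 7 tested was higher in replicate 1 than in replicates 2 and 3.

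**Figure D2:**
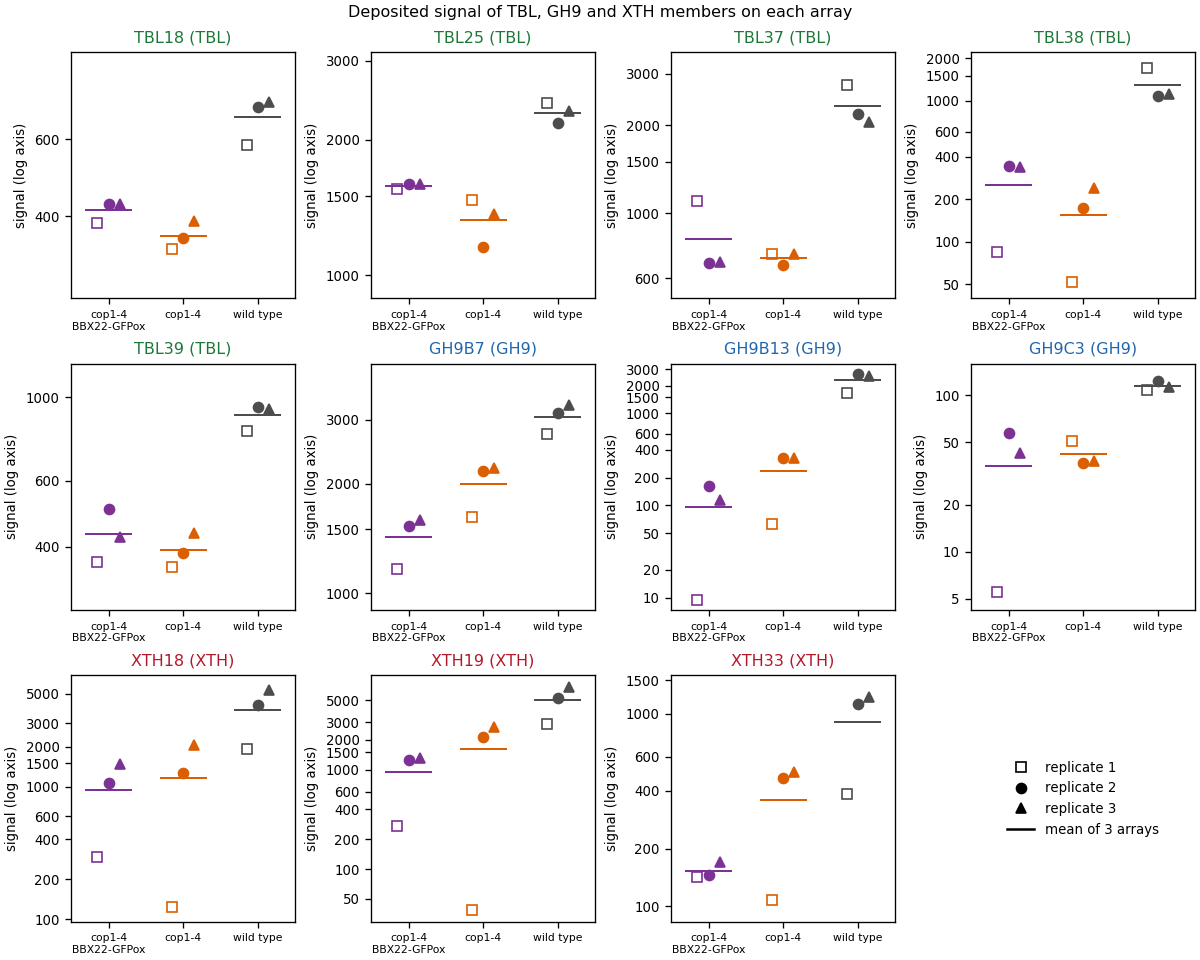
Deposited signal (log axis, its range differs between panels) on each array for the 9 genes called in a comparison with the wild type and for XTH18 and XTH19; open squares are replicate 1, circles replicate 2, triangles replicate 3, and lines the mean of 3 arrays. For TBL18, TBL25, TBL37, TBL38, TBL39 and GH9B13 every cop1-4 array lies below every wild type array. Replicate 1 is the lowest cop1-4 array for TBL18, TBL38, TBL39, GH9B7, GH9B13, XTH18, XTH19 and XTH33.

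In cop1-4 BBX22-GFPox against the wild type, 8 of the 32 genes fell (25%) and 0 rose, with 11.7% lower and 9.8% higher among all tested probe sets. They were TBL18, TBL37, TBL38, TBL39, GH9B7, GH9B13, GH9C3 and XTH33. At an unadjusted limma p under 0.05, 1 gene of the 32 was higher, TBL28, beside 2545 of all 15922 probe sets. This comparison shares its wild type arrays with the one above, so the genes called in both are not independent observations. The replicate block again gave 17 lowered genes (8 TBL, 6 GH9 and 3 XTH) and 0 raised, where it called 21.8% of all probe sets lower and 18.9% higher. The count of 8 was 4 without wild type replicate 3, 5 without wild type replicate 2, 5 without cop1-4 BBX22-GFPox replicate 3 and 14 without cop1-4 replicate 1, an array that enters only through the shared estimate of the spread. Over all probe sets the lowered count of 1866 moved likewise, to 957 without wild type replicate 3 and to 2592 without cop1-4 replicate 1. In replicates 2 and 3 alone 19 fell and 5 rose, beside 32.7% and 27.5% of all probe sets. All 3 arrays with the construct lay below all 3 wild type arrays for 19 genes and above them for 2 (TBL26 and TBL28), patterns found in 24.6% and 19.2% of all tested probe sets. The median log2 change was -0.51 for TBL, -1.09 for GH9 and -0.58 for XTH, against -0.11 for all tested probe sets.

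GH9B13 was again the gene with the largest log2 change. It measured 9.50, 163 and 115 in cop1-4 BBX22-GFPox, against 1653, 2665 and 2567 in the wild type, 23.9-fold apart between the means (log2 change -4.56 ± 0.71, adjusted p = 0.00362). Replicate 1 with the construct lay under the offset, which compresses its log2 value. GH9B7 measured 1169.7, 1530.2 and 1587.5 with the construct, against 2744, 3133 and 3296 in the wild type (log2 change -1.09 ± 0.22, adjusted p = 0.0101). No single array removed the call of either gene.

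GH9C3 and XTH33 had less stable calls. GH9C3 measured 5.5, 57.5 and 43.0 in cop1-4 BBX22-GFPox, against 107, 123 and 114 in the wild type (log2 change -1.34 ± 0.36, adjusted p = 0.0298). Its call was lost without any of the 3 wild type arrays or cop1-4 BBX22-GFPox replicate 3 (the highest adjusted p was 0.0887, with wild type replicate 2 left out), and with an offset of 1. XTH33 measured 142, 145.5 and 171 with the construct, against 386, 1122 and 1221 in the wild type (log2 change -2.24 ± 0.58, adjusted p = 0.0256). Its 3 arrays with the construct were close together, the only tested XTH gene of which replicate 1 was less than 1 log2 unit from replicates 2 and 3 in that genotype (log2 difference -0.13). The call was lost without wild type replicate 2 or 3 or cop1-4 BBX22-GFPox replicate 2 or 3 (highest adjusted p = 0.0926, with wild type replicate 3 left out).

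TBL38 measured 84.4, 342 and 336 in cop1-4 BBX22-GFPox (log2 change against the wild type -2.41 ± 0.57, adjusted p = 0.0191), and its call was lost without wild type replicate 1 (adjusted p = 0.0674) or 3. TBL37 measured 1103, 675 and 682 (-1.50 ± 0.24, adjusted p = 0.00388) and TBL39 measured 365, 505 and 426 (-1.02 ± 0.19, adjusted p = 0.00723), and both kept their calls without any single array. TBL18 measured 385, 426 and 427 (-0.67 ± 0.17, adjusted p = 0.0258), lost without wild type replicate 2 or 3 or cop1-4 BBX22-GFPox replicate 2 or 3 (highest adjusted p = 0.0916, with wild type replicate 3 left out). TBL25 measured 1555, 1599 and 1592 and fell with the block but not in the main fit (log2 change -0.53 ± 0.18, adjusted p = 0.0682, and 0.0288 with the block). TBL23, TBL30 and TBL36 likewise fell with the block but not in the main fit (adjusted p = 0.0456, 0.0138 and 0.0266 with the block). So did GH9B8, GH9B12, GH9C2, XTH18 and XTH19 (adjusted p from 0.00368 to 0.0244 with the block). TBL25 and all of these also fell with array weights. GH9C2 fell as well with quantile normalization (adjusted p = 0.0428), median scaling (0.0494) and an offset at the 40th percentile (0.0371). TBL36 fell with that offset (adjusted p = 0.0459) and with the filter at the 50th percentile (0.0495).

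**Figure D3:**
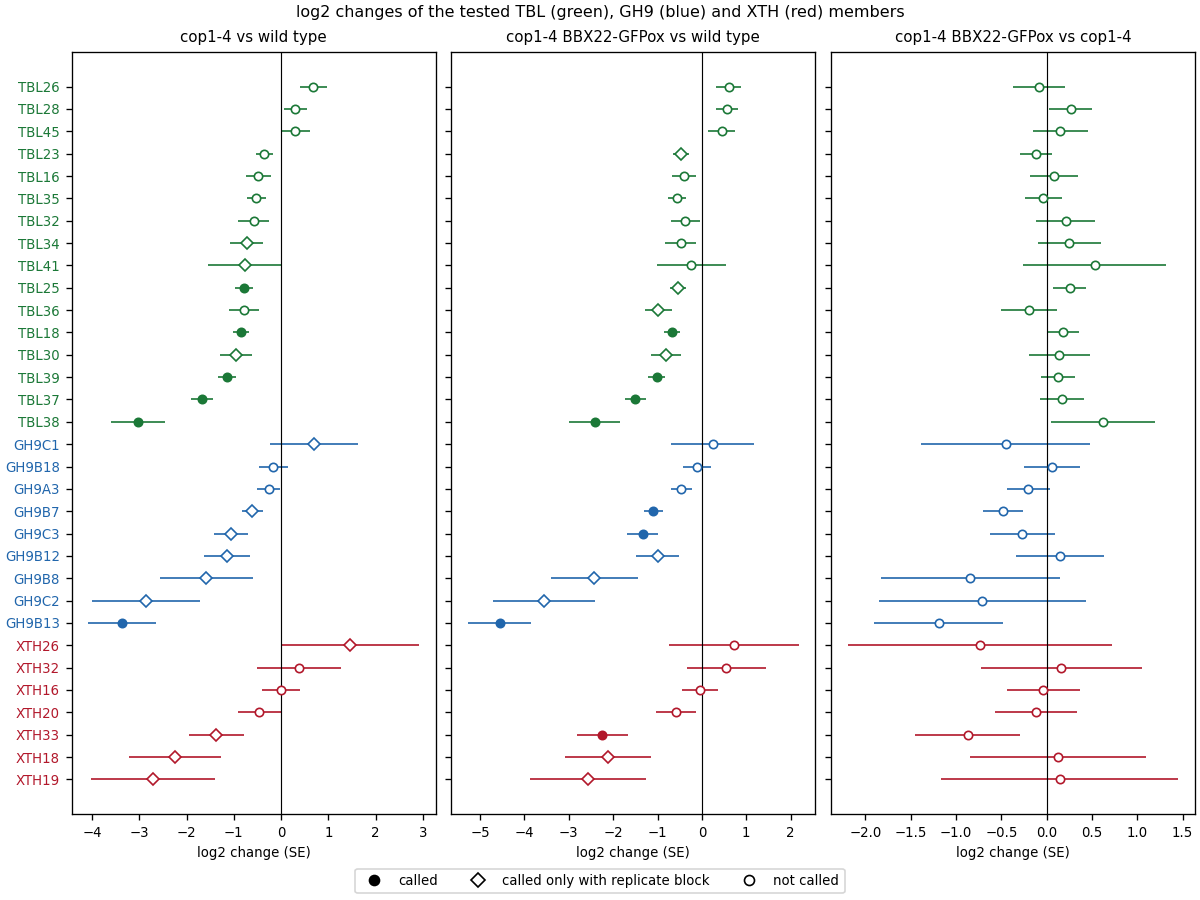
Log2 change (x axis) with its SE for each of the 32 tested genes (rows, TBL green, GH9 blue, XTH red) in the 3 comparisons; filled circles were called, diamonds were called only with the replicate block and open circles were not called. The 6 genes called in cop1-4 and the 8 called in cop1-4 BBX22-GFPox against the wild type all lie left of 0, and no gene is filled in the comparison of cop1-4 BBX22-GFPox with cop1-4.

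Between cop1-4 BBX22-GFPox and cop1-4 no gene of the families was called. Limma called 0 of 32 in either direction and 0 had an unadjusted p under 0.05, beside 1194 of all 15922 probe sets. With the block the count was also 0. Among all tested probe sets 0.283% rose and 0.0188% fell (1.04% and 0.258% with the block), so few calls were made anywhere. The median log2 change was 0.16 for TBL, -0.45 for GH9 and -0.04 for XTH, beside -0.0047 for all tested probe sets. Leaving out 1 array at a time gave 0.05 to 0.25 for TBL, -0.62 to -0.02 for GH9 and -1.03 to 0.58 for XTH, where the lowest value of each family was without cop1-4 replicate 1 and the highest without cop1-4 BBX22-GFPox replicate 1. Negative log2 changes were seen for 4 of 16 TBL, 7 of 9 GH9 and 4 of 7 XTH genes, beside 50.6% of all tested probe sets. All 3 arrays with the construct lay above those of cop1-4 for 1 gene, TBL25, and below them for 1 gene, GH9B7, patterns found in 6.37% and 4.99% of all tested probe sets.

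Within replicates 2 and 3 alone, where p-values rest on 2 arrays per genotype, 3 of the 32 genes rose and 7 fell, with 12.7% higher and 11.5% lower among all probe sets. Of the GH9 genes 4 of 9 fell with the construct: GH9B7, GH9B8, GH9B13 and GH9C2. Their replicate 2 and 3 signals were 888 and 756 with the construct against 1634 and 2096 in cop1-4 for GH9C2, and 124 and 99.5 against 244 and 374 for GH9B8. The replicate 1 signals of GH9C2 were 95.3 with the construct and 81.8 in cop1-4, and those of GH9B8 were 4.00 and 3.80, so neither differed in the same direction there. GH9B13 and GH9B7 were lower with the construct in each of the 3 replicates, by log2 differences of -1.35 and -0.46 in replicate 1 and -1.11 and -0.49 in replicates 2 and 3.

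The XTH genes that moved in replicates 2 and 3 went both ways. XTH33 fell (log2 difference -1.47, adjusted p = 8.61e-06 in replicates 2 and 3 alone), as did XTH19 (-0.90, adjusted p = 0.000711) and XTH26 (-0.86, adjusted p = 0.00107). XTH32, of a branch of the family whose members can also hydrolyse xyloglucan, rose (0.53, adjusted p = 0.0130). It measured 181, 1749.5 and 1598 with the construct, 279, 1065 and 1249 in cop1-4, and 270.3, 818 and 742 in the wild type. In replicate 1 these differences were 0.32 for XTH33, 2.23 for XTH19, -0.50 for XTH26 and -0.56 for XTH32, so only that of XTH26 kept its sign. Of the TBL genes TBL38 and TBL41 rose (0.67 and 0.74, adjusted p = 0.00895 and 0.0313 in replicates 2 and 3 alone), with 0.52 and 0.11 in replicate 1.

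**Figure D4:**
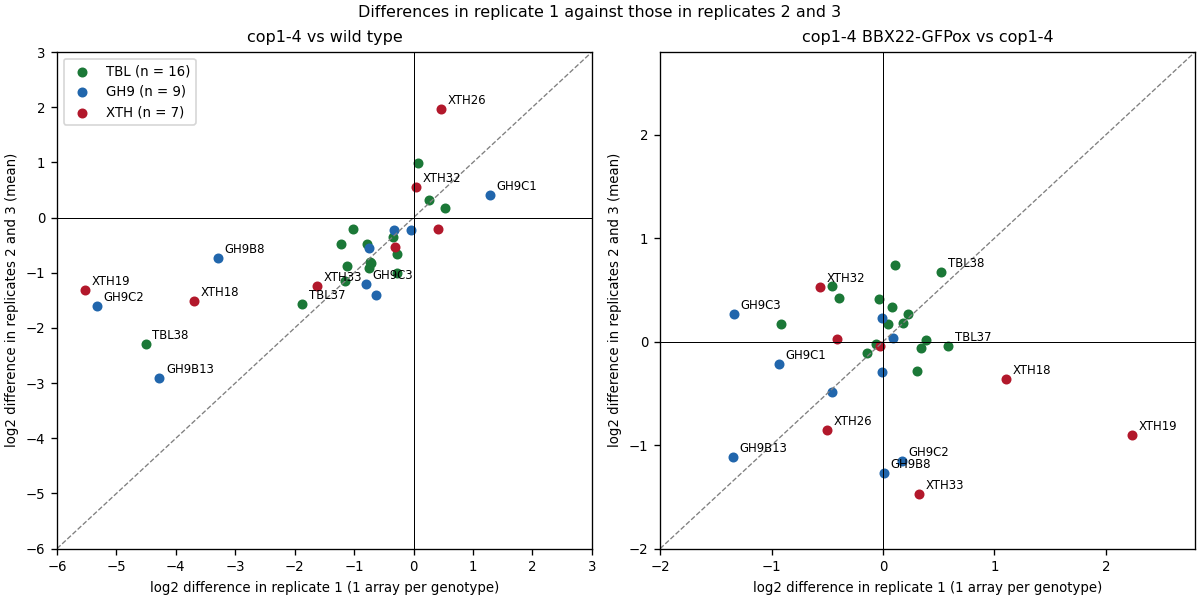
Log2 difference in replicate 1 (x axis, 1 array per genotype) against the mean log2 difference in replicates 2 and 3 (y axis) for the 32 tested genes, for cop1-4 minus wild type (left) and cop1-4 BBX22-GFPox minus cop1-4 (right); the dashed line marks equal values. On the left 31 of 32 genes have the same sign on both axes, and on the right 16 of 32 do, with XTH19 at 2.23 in replicate 1 and -0.90 in replicates 2 and 3.

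The signs in replicate 1 and in replicates 2 and 3 were the same for 31 of the 32 genes in cop1-4 against the wild type, the exception being XTH16, and for 27 of 32 in cop1-4 BBX22-GFPox against the wild type. Over all tested probe sets they were the same for 11553 and 11843 of 15922. In cop1-4 BBX22-GFPox against cop1-4 they were the same for 16 of 32, namely 9 of 16 TBL, 5 of 9 GH9 and 2 of 7 XTH genes, beside 9175 of all 15922 probe sets.

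The 14 genes that did not pass the filter were 6 TBL (TBL15, TBL19, TBL20, TBL21, TBL42 and TBL43), 6 GH9 (GH9A4, GH9B5, GH9B6, GH9B11, GH9B16 and GH9B17) and 2 XTH genes (XTH21 and XTH29), with signals between 1.60 and 130.8 on the 9 arrays. Those for xyloglucan acetyltransferases, TBL19, TBL20 and TBL21, were all among them. TBL19 measured 62.4, 25.2 and 37.0 in cop1-4 BBX22-GFPox, 4.50, 9.30 and 7.20 in cop1-4, and 77.3, 54.7 and 126 in the wild type. The cop1-4 arrays lay below all others, and in a fit without the filter TBL19 fell in cop1-4 against the wild type (log2 change -1.76, adjusted p = 0.00531) while its difference between cop1-4 BBX22-GFPox and cop1-4 did not pass (log2 change 1.03, adjusted p = 0.333). TBL20 was highest in cop1-4, at 16.7, 11.8 and 2.60 with the construct, 55.5, 34.6 and 31.3 in cop1-4, and 24.0, 5.00 and 9.60 in the wild type, and was not called without the filter (adjusted p = 0.0616 for cop1-4 against the wild type). TBL21, the chromosome 5 neighbour of TBL19, overlapped between all genotypes.

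Other wall genes were counted from 8 lists chosen by symbol, of which 5 had tested genes, 25 in all. In cop1-4 against the wild type 10 of the 25 fell and 1 rose, beside 14.5% and 11.3% of all probe sets. In cop1-4 BBX22-GFPox against the wild type 11 fell and 1 rose, beside 11.7% and 9.8%. With the block 12 fell and 3 rose in cop1-4 against the wild type, beside 24.6% and 19.9% of all probe sets in that fit. For cop1-4 BBX22-GFPox against the wild type the block gave 12 lowered and 1 raised, beside 21.8% and 18.9%. The block added CSLC04, CSLC5 (both lower, adjusted p = 0.0287 and 0.0327), EXPA7 and EXPA18 (both higher) in cop1-4, and CSLD2 (lower, adjusted p = 0.0108) in cop1-4 BBX22-GFPox. Between cop1-4 BBX22-GFPox and cop1-4 limma called 0 of the 25, and 0 with the block. Of the 25 genes 5 had an unadjusted limma p under 0.05, beside 1194 of all 15922 probe sets. Expansins, which loosen walls without cutting polymers, made up 7 of the lowered genes in each comparison with the wild type, out of 13 tested, among them EXPA9 at 485 ± 87.2 in cop1-4 and 3326 ± 465 in the wild type (SD, n = 3 each; log2 change -2.72, adjusted p = 0.000195). PME61, a pectin methylesterase gene, measured 15.7 ± 11.5 in cop1-4 BBX22-GFPox, 68.7 ± 41.8 in cop1-4 and 639 ± 44.9 in the wild type (log2 changes -4.09 and -2.95 against the wild type, adjusted p = 0.000453 and 0.00149). The gene that rose, in both comparisons, was CSLA03, of a mannan synthase family, at 678 ± 73.3 in cop1-4 BBX22-GFPox and 675 ± 237 in cop1-4, against 292 ± 68.0 in the wild type (log2 changes 1.17 and 1.12, adjusted p = 0.0169 and 0.0181). Those calls were lost when any of 3 and of 2 arrays was left out, with 0.0679 and 0.0694 as the highest adjusted p, both for wild type replicate 3. CSLC5, of the family that makes the xyloglucan backbone, measured 285 ± 114 in cop1-4 BBX22-GFPox and 1064 ± 188 in the wild type (log2 change -1.86, adjusted p = 0.0106).

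The other cell type markers, of green tissue, seed reserves and the stomatal lineage, were compared by signal summed over the genes measured. These sums separated both cop1-4 genotypes from the wild type without overlap. The seed oil body gene OLEO3, 1 of 3 seed reserve markers measured, lay between 35.9 and 98.9 in cop1-4 BBX22-GFPox, between 45.6 and 69.1 in cop1-4 and between 1959.6 and 2322.5 in the wild type. The green tissue genes RCA and PSAN, 2 of 4 listed, summed to between 32366.5 and 42872.8 in cop1-4 BBX22-GFPox, between 28936.7 and 56963.8 in cop1-4 and between 7443.3 and 11229.2 in the wild type. The 3 stomatal lineage genes summed to between 276 and 340 in cop1-4 BBX22-GFPox, between 213 and 231 in cop1-4 and between 105 and 136 in the wild type. Of these FAMA, a regulator of guard cell formation, rose in cop1-4 BBX22-GFPox against the wild type (log2 change 1.24, adjusted p = 0.0259) and, with the block only, in cop1-4 (log2 change 0.91, adjusted p = 0.0644, and 0.0114 with the block). SPCH, which starts the lineage, rose with the block only in cop1-4 BBX22-GFPox against the wild type (log2 change 0.90, adjusted p = 0.130, and 0.0309 with the block). By itself SPCH overlapped between cop1-4 (24.6, 93.3 and 85.7) and the wild type (33.1, 33.3 and 70.3), and so did MUTE. None of the 7 xylem and 2 epidermis markers was measured here. The part of these cell types in the wall gene values was not tested.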

How the data were processed

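Each of the 9 samples was 1 Affymetrix array, and the labels call the 3 per genotype biological replicates. The deposited values are probe set intensities from MAS5, per the submitters' processing notes. They are linear, and the trimmed means of the 9 columns lie between 494.7 and 496.2, so the arrays appear to have been scaled to a common level. No source used here gives the MAS5 version or settings. The number of arrays limits the precision.

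Gene names come from the platform annotation. With limma 3.58.1 in R 4.3.3, log2(signal + 24.5) was fitted with 1 mean per genotype. The offset is the 20th percentile of all values. Probe sets with a mean below the 30th percentile were left out, and p-values were two-sided and adjusted by Benjamini-Hochberg over the 15922 kept. The script was tested on simulated data. Same-numbered arrays deviated together from their genotype means (r from 0.375 to 0.806 over 9 pairs). These values cannot show pairing beyond replicate 1. That array stood apart in each genotype, so the other arrays of the genotype tended to deviate together the opposite way. Differently numbered arrays were not compared between genotypes. The replicate numbers were taken from the labels to pair the samples in the block fit, and the main fit had no block. Named genes are those called, the strongest of a family with fewer than 3 calls, and those called only with the block; others are given by range, count or role. The members and lists were chosen with earlier results of these data known. Alternatives were the block, other offsets, filters, scalings, array weights, no trend and leaving out each array.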

Additional observations from a re-analysis of the deposited data

How the results depend on the processing

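With the replicate block, cop1-4 against the wild type had 8 lowered TBL, 6 lowered GH9, 3 lowered XTH (17 in all), and 1 raised GH9 and 1 raised XTH gene (2 in all). cop1-4 BBX22-GFPox against the wild type had 8, 6 and 3 lowered (17), and the block changed no call between cop1-4 BBX22-GFPox and cop1-4. Probe sets called with the block numbered 3923 lower and 3173 higher, against 2305 and 1795 without it, in cop1-4 against the wild type, and 3468 and 3011, against 1866 and 1561, in cop1-4 BBX22-GFPox against the wild type.

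With array weights, cop1-4 against the wild type had 11 TBL, 5 GH9 and 3 XTH genes lowered (19) and 1 TBL and 1 XTH raised (2). cop1-4 BBX22-GFPox against the wild type had 9, 7 and 3 lowered (19), and 3 TBL and 1 XTH raised (4). Against cop1-4 it had 4 GH9 and 1 XTH lowered (5) and 2 TBL raised (2). The weights called 5321 probe sets lower and 4455 higher in the first comparison, 5143 and 4246 in the second, and 1632 and 1878 in the third.

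Replicates 2 and 3 alone, chosen after seeing the data, gave 10 TBL, 6 GH9 and 4 XTH lowered (20) and 1 TBL and 2 XTH raised (3) in cop1-4 against the wild type. In cop1-4 BBX22-GFPox against the wild type they gave 9, 6 and 4 lowered (19) and 3 TBL and 2 XTH raised (5). Against cop1-4 they gave 4 GH9 and 3 XTH lowered (7) and 2 TBL and 1 XTH raised (3), and the log2 change of XTH19 reversed to -0.90, against 0.14 in all arrays, as replicate 1 alone was higher with the construct. Replicate 1 as a batch term, also chosen after seeing the data, gave 10 TBL, 6 GH9 and 3 XTH lowered (19) and 1 GH9 and 1 XTH raised (2) in cop1-4 against the wild type, and 9, 6 and 4 lowered (19) and 1 TBL raised (1) in cop1-4 BBX22-GFPox against the wild type. The batch term called 4393 probe sets lower and 3517 higher in the former comparison, and 3917 and 3333 in the latter.

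In cop1-4 against the wild type, an offset at the 40th percentile gave a TBL median of -0.53 and 2 lowered GH9 genes, GH9B13 and GH9C3. Median scaling raised 1 gene, TBL26 (1 TBL, 1 in all). With the filter at the 50th percentile, which tests fewer genes, the medians in cop1-4 BBX22-GFPox against the wild type were -2.33 for GH9 and -2.11 for XTH. Other causes were not tested.

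Leaving out 1 array at a time in cop1-4 against the wild type gave 0 to 1 raised genes in TBL and in all, 1 to 2 lowered GH9 genes and medians of -0.84 to -0.53 for TBL, -1.11 to -0.47 for GH9 and -0.81 to -0.28 for XTH. In cop1-4 BBX22-GFPox against the wild type it gave 2 to 6 lowered TBL, 2 to 5 GH9 and 0 to 3 XTH genes, 4 to 14 in all, and 0 to 1 raised in TBL and in all. Over all probe sets that comparison had 957 to 2592 lowered and 840 to 2228 raised, and cop1-4 against the wild type had 1241 to 2910 and 973 to 2731. Between cop1-4 BBX22-GFPox and cop1-4 it called 0 genes of the families, and the XTH median turned sign (-1.03 to 0.58). No gene had 2 probe sets, so averaging probe sets gave the same values. Dim genes sit near the offset, where log2 changes are compressed.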
